A study of Mus musculus with 9 samples.

Results

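Chromatin captured with probes against the long noncoding RNA Gm4665 gave 37617 peaks on chromosomes 1 to 19, and 559 of them stood in 133 dense local runs. A run was a stretch of at least 4 peaks in which each peak started within 10 kb of the end of the one before it. These members were selected on measured values, namely the positions of the called peaks, so their closeness to each other is a description and carries no test. All groups used testicular germ cells of wild-type mice of the ICR strain at postnatal day 35, with no further genotype or treatment. DNA was retrieved with biotinylated probes against Gm4665 or, as the control, against LacZ, a bacterial gene absent from mice, and sequenced beside input DNA. Each of the 3 groups had 3 replicates, for 9 samples in all. Sample titles call the captured RNA LncRNA-20, and the protocol of the same samples names Gm4665. No label ties a replicate to an animal, and the p-value given here measures the spread between these samples, which may be technical.

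Capture of a noncoding RNA with antisense probes retrieves the DNA that the RNA lies against in cross-linked chromatin, together with any DNA the probes bind by themselves. Some noncoding RNAs spread over long stretches of a chromosome, as Xist does, and others sit at separate sites. A list of called peaks can therefore hold isolated peaks, neighbours that belong together, and neighbours that are close because many peaks share 1 chromosome. Postnatal day 35 testis holds spermatogonia, meiotic spermatocytes and spermatids, and the labels name no purified stage. Retrieved DNA does not report which of these cells it came from.

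The DNA under run peaks is shown first at gene starts, since the series asked about regulatory regions of genes. A promoter window spans 250 bases before to 50 after an annotated start, and 13 such windows of 7 genes lay wholly inside a run peak. RefSeq windows of the GRCm38.p6 build were available for 98 of the 156 genes under runs. One window each is printed for 5 of these genes, 5′ to 3′ along the gene, chosen because their peaks were among the stronger ones in runs. Capitals mark a TATA box (TATAAA) or a GC box (GGGCGG), searched on both strands. Gm36736 is a lncRNA gene, with its window at chr7:121337164-121337463 on the minus strand. Gm33631, also a lncRNA gene, has its window at chr13:53309701-53310000 on the minus strand. The window of 1520401A03Rik, a protein-coding gene, lies at chr17:23720956-23721255 on the minus strand. Cck encodes the peptide hormone cholecystokinin, and its window is chr9:121495645-121495944 on the minus strand. Prrt1 encodes a proline-rich transmembrane protein of synapses, and its window is chr17:34629314-34629613 on the plus strand.
Gm36736: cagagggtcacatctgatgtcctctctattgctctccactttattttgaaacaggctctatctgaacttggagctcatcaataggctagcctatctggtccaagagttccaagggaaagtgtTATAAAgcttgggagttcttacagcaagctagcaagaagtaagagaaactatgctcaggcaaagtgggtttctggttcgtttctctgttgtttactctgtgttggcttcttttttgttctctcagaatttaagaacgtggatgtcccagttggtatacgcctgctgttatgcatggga
Gm33631: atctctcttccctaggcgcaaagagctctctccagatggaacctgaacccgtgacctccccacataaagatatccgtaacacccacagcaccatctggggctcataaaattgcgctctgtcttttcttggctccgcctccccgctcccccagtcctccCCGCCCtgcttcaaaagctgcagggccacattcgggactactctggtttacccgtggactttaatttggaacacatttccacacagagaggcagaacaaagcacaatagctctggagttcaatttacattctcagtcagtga
1520401A03Rik: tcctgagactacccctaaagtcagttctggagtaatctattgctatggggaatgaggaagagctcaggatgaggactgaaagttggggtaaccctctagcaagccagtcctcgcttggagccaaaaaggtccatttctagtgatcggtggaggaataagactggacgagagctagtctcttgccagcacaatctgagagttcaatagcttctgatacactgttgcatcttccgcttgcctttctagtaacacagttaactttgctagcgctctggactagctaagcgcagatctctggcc
Cck: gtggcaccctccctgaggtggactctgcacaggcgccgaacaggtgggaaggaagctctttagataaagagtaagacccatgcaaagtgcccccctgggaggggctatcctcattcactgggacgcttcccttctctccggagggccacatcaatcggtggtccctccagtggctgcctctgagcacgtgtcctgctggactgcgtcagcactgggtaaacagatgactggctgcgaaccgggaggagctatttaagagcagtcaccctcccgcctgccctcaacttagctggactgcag
Prrt1: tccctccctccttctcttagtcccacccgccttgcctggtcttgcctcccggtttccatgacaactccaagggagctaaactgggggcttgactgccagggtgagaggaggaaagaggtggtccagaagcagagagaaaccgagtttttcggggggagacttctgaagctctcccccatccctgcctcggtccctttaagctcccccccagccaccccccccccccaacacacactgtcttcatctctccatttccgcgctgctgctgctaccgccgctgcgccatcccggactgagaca

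The peak over the Gm36736 window had folds over input of 60.0, 25.5 and 54.3 in replicates 1, 2 and 3 (mean 46.6 ± 18.5, SD, n = 3). The Gm33631 peak had folds of 47.3, 49.997 and 51.8 (mean 49.7 ± 2.23). Replicate 2 was therefore low at the first gene and level with the others at the second. The 1520401A03Rik peak had folds of 67.5, 44.6 and 61.6 (mean 57.9 ± 11.9), and the Cck peak had 44.7, 26.7 and 30.8 (mean 34.0 ± 9.43). The peak over Prrt1 also covered the start of Ppt2, a lysosomal thioesterase gene, with folds of 43.5, 25.2 and 32.8 (mean 33.8 ± 9.16). The seventh gene, the lncRNA Gm31496, had a weaker peak with folds of 7.501, 4.76 and 7.81 (mean 6.69 ± 1.68). The 13 windows overlap where 1 gene has several annotated starts, so they amount to 7 genes and not 13 separate sequences. Their median GC content was 48.3%, against 53.0% over all 31396 promoter windows and 54.0% over the 229 windows inside other Gm4665 peaks. A CCAAT box (CCAAT, either strand) was in 0 of the 13 windows and in 37.3% of all windows. A GC box was in 2 of the 13, or 15.4%, against 36.0% of all windows, and a TATA box in 1, or 7.69%, against 13.6%. Runs of 6 CA or 6 GA dinucleotides were in none of the 13, and in 1.03% and 0.580% of all windows. With 7 genes these shares describe the windows shown and nothing wider.

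Runs held 1.49% of the Gm4665 peaks, with a 95% Wilson interval of 1.37% to 1.61%. The interval counts peaks as independent, but they enter runs at least 4 at a time. It therefore understates even the counting error and serves as no test. Independent uniform placement of as many peaks on each chromosome gives 429 peaks, or 1.14%, in 103 runs, so the observed count was 1.30 times that level. Uniform placement was computed in closed form, from exponential gaps over the part of each chromosome that peaks leave uncovered. Any stretch where no read can be placed counts as room there, which lowers the expectation and raises the ratio. The length of such stretches could not be read here. The excess was modest, and its size depended on how local the density was taken to be. With the density of each 10 Mb window the ratio was 1.18. With the density of each 1 Mb window the expectation rose to 693 peaks and the ratio was 0.806. A 1 Mb window holds few peaks and counts those of its own run, which raises this last expectation by construction.

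The LacZ control list, with 9213 peaks, had 64 peaks in 8 runs. That is 0.695% of the list, against 2.03 peaks in 0.503 runs under uniform placement, a ratio of 31.5. The 95% Wilson interval of the share, 0.544% to 0.886%, is likewise too narrow, since these peaks come from 8 runs. The LacZ excess came mostly from 5 large runs: without the runs of at least 8 peaks, 14 LacZ peaks were left, 6.88 times the uniform level. The share in runs rises steeply with the number of peaks, so the lists were also set at equal size. The 9213 Gm4665 peaks of highest mean fold formed 0 runs among themselves, where uniform placement gives 2.03 peaks in 0.502 runs. An absence of runs is within what uniform placement gives at this size. Ranking them without replicate 1 or without replicate 2 also gave 0 peaks in runs, and without replicate 3 gave 4. In the full list, 142 of those 9213 strongest peaks, or 1.54%, belonged to a run, close to the share over all Gm4665 peaks.

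Most Gm4665 runs were of the smallest size allowed. There were 112 runs of 4 peaks, 16 of 5, 4 of 6 and 1 of 7, and uniform placement gives 87.5, 13.0, 1.94 and 0.290. Runs of at least 5 peaks held 19.9% of the run peaks. Of the groups that fell short of a run, 696 had 3 peaks, against 592 under uniform placement. Run spans went from 6.65 to 42.1 kb with a median of 17.3 kb and added up to 2.47 Mb, of which the peaks themselves covered 15.6%. The 426 gaps inside runs ranged from 157 to 9931 bp with a median of 4705 bp. The 8 LacZ runs were of another size, with 13, 10, 10, 9, 8, 6, 4 and 4 peaks.

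Gaps between neighbours showed the same difference over all peaks of both lists. In the Gm4665 list, pairs of neighbours less than 0.5 kb apart were fewer than uniform placement gives, 246 against 298. Pairs 0.5 to 1 kb apart numbered 331 against 295, and pairs 1 to 2 kb apart 670 against 584, the largest excess at 1.15 times. From 5 to 10 kb the ratio was 1.05. In the LacZ list the ratio was 1.40 below 0.5 kb (25 pairs), 1.74 from 0.5 to 1 kb (31 pairs) and 1.20 from 5 to 10 kb (209 pairs). Strength was nearly unrelated between neighbouring Gm4665 peaks, where Spearman's rho between the mean folds of neighbours was 0.058 below 0.5 kb, -0.061 from 0.5 to 1 kb and 0.021 from 5 to 10 kb. Neighbouring LacZ peaks were more alike in fold at short range, with rho of 0.502, 0.484 and 0.082 over the same gaps. The first 2 of these values rest on only 25 and 31 pairs. These correlations run over pairs within a list, which share libraries and are not independent, and they are given as a description.

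**Figure D1:**
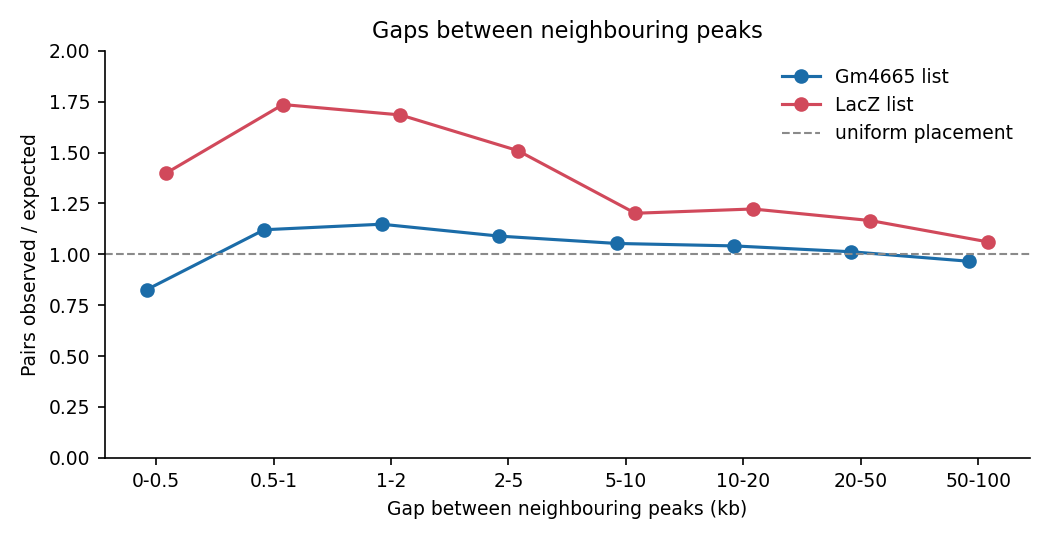
Number of neighbouring peak pairs divided by the number under uniform placement (y axis), by the gap between them in kb (x axis), for the Gm4665 list and the LacZ list. The Gm4665 points lie between 0.826 and 1.15, and the LacZ points reach 1.74 at 0.5 to 1 kb, from 31 pairs.

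Chromosome 7 held the most run peaks. It had 64 in 15 runs against 24.2 in 5.81 runs under uniform placement at its own density, a ratio of 2.64, while its overall density of 15.6 peaks per Mb was close to that of its neighbours in number, chromosomes 6 (15.3) and 8 (15.5). Chromosomes 19, 8 and 5 followed with ratios of 1.86, 1.73 and 1.66. Chromosome 1, with 2855 peaks, had only 9 in 2 runs against 27.6 in 6.64 runs, a ratio of 0.326. Chromosome 15 was also low, with 13 against 17.7. Chromosome 11 had the highest density, 18.5 peaks per Mb, and 39 run peaks against 38.0. Over the 19 chromosomes, Spearman's rho between peak density and the share of peaks in runs was 0.395, given as a description of points that share libraries. Uniform placement itself gives a higher share at higher density, and rho between density and the ratio to uniform placement was 0.023. The 7 least dense chromosomes all had shares below that of the list, from 0.315% to 1.44%. Their ratios ran from 0.326 on chromosome 1 to 1.53 on chromosome 16, and only those of chromosomes 1 and 6 were below 1. The LacZ list had no run on chromosome 7, where uniform placement gives 0.125 run peaks. Outside the autosomes the same rule found no run among 1094 Gm4665 peaks on X and Y, nor among 235 LacZ peaks there. The level under uniform placement was not computed for X and Y, so this absence shows no difference from the autosomes. Some runs lay near each other: 9 pairs, made up of 17 of the 133 runs, were within 1 Mb, the nearest 105 kb apart on chromosome 9.

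**Figure D2:**
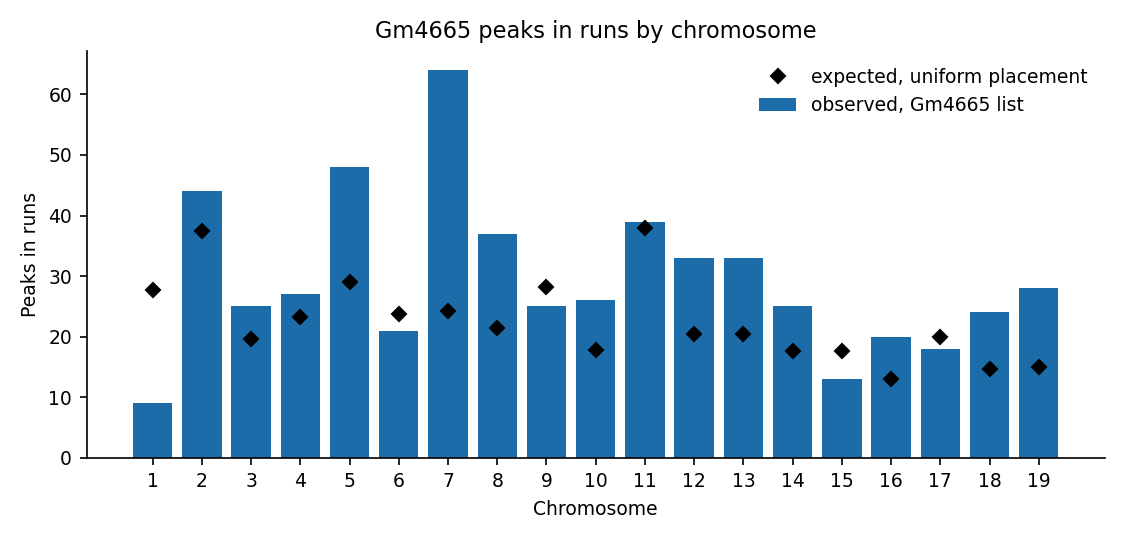
Gm4665 peaks in runs on each of chromosomes 1 to 19 (bars) and the number that uniform placement at each chromosome's own density gives (diamonds). Chromosome 7 has 64 against 24.2, and chromosome 1 has 9 against 27.6.

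Run peaks were about as strong as other Gm4665 peaks. Fold here is the authors' linear fold enrichment over input. The median fold of run peaks was 10.6, 8.50 and 9.52 in replicates 1, 2 and 3, and that of the other 37058 peaks was 11.4, 8.50 and 10.3. Run peaks were thus slightly lower in replicates 1 and 3 and level in replicate 2, with ratios of 0.927, 1.00 and 0.926 (mean 0.951 ± 0.042, SD, n = 3). Taken on mean rather than median folds the ratio was 1.01. In the LacZ list the ratio of run peaks to other peaks was 0.424, 0.778 and 0.744 (mean 0.649 ± 0.195, SD, n = 3). All 3 Gm4665 ratios exceeded all 3 LacZ ratios. The difference was 0.302, with an exact permutation p of 0.1 (two-sided), the smallest that 3 against 3 allows, so the test could not pass 0.05 in this design. The low LacZ level rested on 3 of its 8 runs, 2 over 5S ribosomal RNA genes and 1 at the start of chromosome 9, which hold 32 of the 64 LacZ run peaks. Without these 3 runs the LacZ ratios were 0.976, 1.15 and 1.25 (mean 1.12 ± 0.137). Set against the Gm4665 ratios without the 5S run (mean 0.956 ± 0.039), the difference turned to -0.168 (exact permutation p = 0.2). The direction of the difference between the lists therefore depended on those 3 runs.

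**Figure D3:**
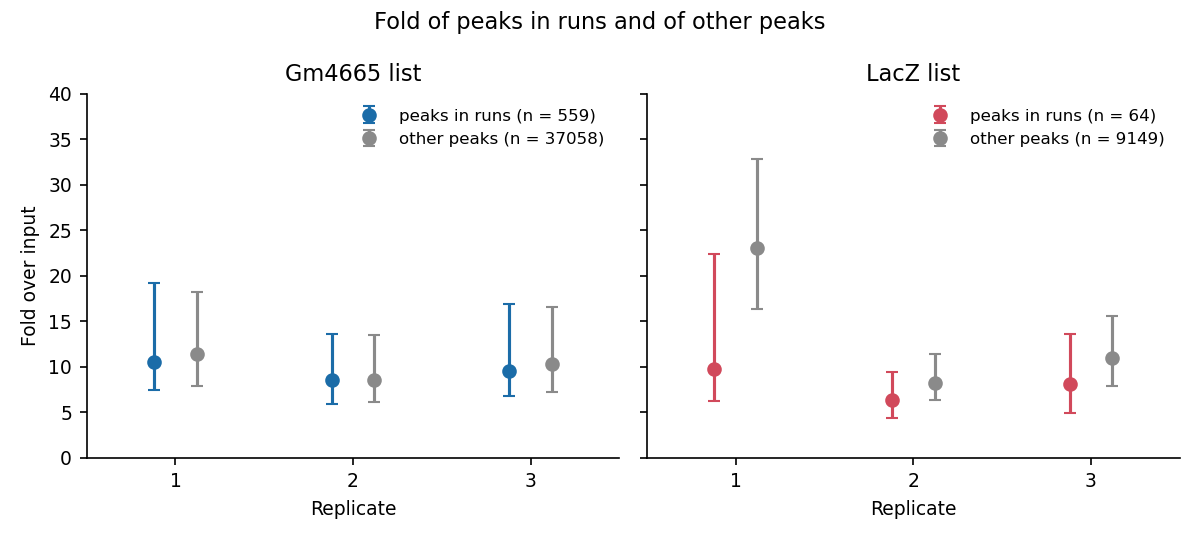
Fold over input (y axis, linear) in each replicate (x axis) for peaks in runs and for all other peaks, in the Gm4665 list (left) and the LacZ list (right). Points are medians and bars run from the first to the third quartile over peaks. Gm4665 run peaks lie level with the other peaks or slightly below them. The LacZ run medians lie lower in each replicate with all 8 runs, but not in replicates 2 and 3 without the 5S runs and the chromosome 9 start, where the ratios are 1.15 and 1.25.

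Other properties of Gm4665 run peaks were also near those of the rest. Median width was 592 bp against 585 bp, and the median coefficient of variation between replicates was 22.5% against 21.9%. In the LacZ list, run peaks had a lower median width than the others, 494.5 bp against 847 bp. LacZ peaks of the 5S runs and of the run at the start of chromosome 9 were 238 to 507 bp wide. Those of the other 5 LacZ runs were 361 to 1384 bp wide, so the lower median is not a trait of all LacZ runs. A mean fold of at least 30 was reached by 44 Gm4665 run peaks, or 7.87%, against 6.40% of the others. Of the 100 strongest peaks in the list 3 belonged to a run, and of the 1000 strongest 17 did. Fold of at least 4 in every replicate was met by 521 of 559 run peaks, or 93.2%, against 95.8% of the others. Peaks at the edges of a run had a median mean fold of 9.46 and those between them 9.55, so folds did not build toward the middle. In runs of 4 the strongest peak was a median of 1.81 times the run's median, and 1.76 times over all sets of 4 neighbours in the list. The run medians kept their order between replicates, with Spearman's rho of 0.820, 0.811 and 0.717 for replicates 1 and 2, 1 and 3, and 2 and 3 over the 133 runs.

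**Figure D4:**
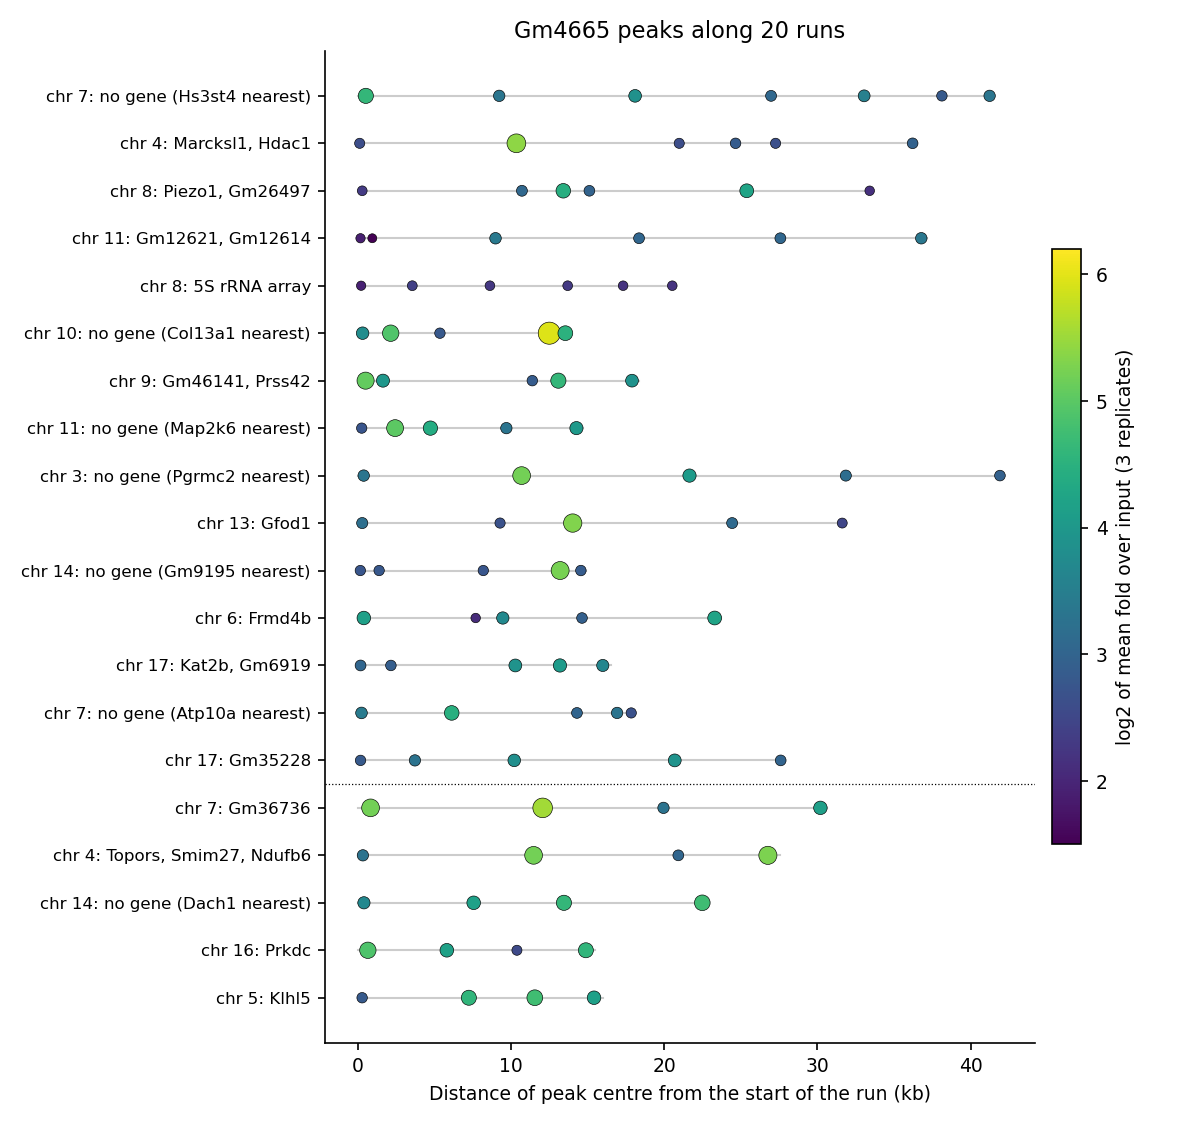
Gm4665 peaks along 20 runs, by distance of the peak centre from the start of the run in kb (x axis). Rows above the dotted line are the 15 runs with the most peaks and rows below it the 5 with the highest median fold among the rest; colour and point size give the mean fold over 3 replicates, colour on a log2 scale, and runs with no gene are labelled by the nearest protein-coding gene. Most rows hold 1 or 2 strong peaks among weaker ones, and the 5S rRNA array holds 6 weak ones.

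The run with the most peaks had no gene under it. Its 7 peaks lay at chr7:123799381-123840770, 294 kb after Zkscan2, a zinc finger gene, and 142 kb before Hs3st4, a heparan sulfate sulfotransferase gene. For this run and those below, before and after follow the chromosome coordinates and not the strand of the gene. The first peak was the strongest, with folds of 29.7, 14.6 and 29.2 (mean 24.5 ± 8.58, SD, n = 3). The other 6 peaks had mean folds from 7.07 to 14.5. Gaps in this run were between 2799 and 8214 bp, with the shortest at its end.

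Among the 4 runs of 6 peaks, 2 lay over well known protein-coding genes. The run at chr4:129501653-129538119 covered Marcksl1, which encodes an actin- and membrane-binding protein, and most of Hdac1, a histone deacetylase gene. Its second peak, chr4:129511340-129512681, stood before Marcksl1 with folds of 44.9, 35.4 and 45.9 (mean 42.1 ± 5.76). The other 5 peaks were weak, with mean folds from 6.08 to 7.75, and 4 of them lay in Hdac1. One strong peak and 5 weak ones thus made up this run. The run at chr8:122495080-122528622 lay wholly inside Piezo1, which encodes a mechanically gated ion channel. All 6 peaks were in that gene, the largest number for any gene, with the strongest at 18.98, 18.5 and 28.0 (mean 21.8 ± 5.35). Another Piezo1 peak reached 22.3, 18.7 and 15.5 (mean 18.8 ± 3.39), and the lowest was at 3.51, 4.29 and 5.49 (mean 4.43 ± 1.00). The run at chr11:60590139-60627257 covered the pseudogenes Gm12621 and Gm12614, with mean folds from 2.84 to 10.5 and no strong peak. The fourth, over 5S ribosomal RNA genes, is described with the LacZ peaks.

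The largest summed mean fold of any run, 135, was in a run of 5 peaks. At chr10:61979722-61993442, 0.516 kb from the nearer end of the collagen gene Col13a1, folds of the fourth peak were 69.9, 57.1 and 58.0 (mean 61.7 ± 7.14). Its neighbour 179 bp away, chr10:61993104-61993442, was listed at 7.14, 57.1 and 4.08. Replicate 2 thus carried the same deposited value for both intervals, while replicates 1 and 3 were low at the second. With that value the mean fold of the neighbour was 22.8, which counts in the sum of 135. The next highest sum was 130, at chr18:55297079-55320462, so the first rank may rest on the shared value. The second peak of this run had folds of 34.8, 28.6 and 26.9 (mean 30.1 ± 4.19). The run at chr9:110780840-110799193 covered the pseudogene Gm46141 and reached into Prss42, a testis serine protease gene of a local protease cluster. Its strongest peak had folds of 35.7, 20.8 and 43.7 (mean 33.4 ± 11.6), and the 1 peak in Prss42 had 17.6, 14.9 and 11.99 (mean 14.8 ± 2.80).

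Of the remaining runs of 5 among the 15 largest, 4 had no gene under them. They lay at chr11:110714126-110728860 between Map2k6 and Kcnj16, at chr3:41096947-41139009 13.9 kb after Pgrmc2, at chr14:72369802-72384689 before Gm9195, and at chr7:58841254-58859294 between Atp10a and Ube3a. Their strongest peaks had mean folds of 32.4 ± 6.34, 36.6 ± 8.57, 37.7 ± 7.44 and 22.0 ± 5.88 (SD, n = 3). Map2k6 encodes a kinase of the p38 pathway, Pgrmc2 a progesterone receptor membrane component, and Ube3a an imprinted ubiquitin ligase, 369 kb from its run. The run near Pgrmc2 was the longest in span and the thinnest, with every gap between 9118 and 9737 bp, just under the 10 kb limit. It would not be a run at a limit of 5 kb.

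Each of 3 other such runs lay wholly inside 1 protein-coding gene. Gfod1, an oxidoreductase-domain gene, held 5 peaks at chr13:43207637-43239460, of which the third had folds of 49.6, 32.3 and 37.3 (mean 39.7 ± 8.90) and the others mean folds from 5.60 to 9.15. Frmd4b, a scaffold protein gene, held 5 at chr6:97414056-97437733, with mean folds from 4.20 to 18.8. Kat2b, which encodes the histone acetyltransferase PCAF, held 5 at chr17:53594237-53610748. The Kat2b peaks had mean folds from 7.40 to 16.8, the highest at 20.5, 8.50 and 21.4 in the 3 replicates. As background, Kat2b adds histone acetylation and Hdac1 removes it. The run peaks within both genes were moderate or weak. The last of the 15, chr17:65091068-65118971, lay over the lncRNA gene Gm35228, with mean folds from 7.02 to 15.1.

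The 5 runs of highest median fold among the rest each had 4 peaks. The Gm36736 run on chromosome 7 led with a median of the peaks' mean folds of 27.0, over all 133 runs the highest. Besides the peak over its promoter window, a peak at chr7:121324904-121326584 in the same gene had folds of 40.1, 29.0 and 40.7 (mean 36.6 ± 6.61). The run at chr4:40250756-40278282 had a median of 23.2 and covered Topors, a ubiquitin and SUMO ligase gene, Smim27 and Ndufb6, a mitochondrial complex I subunit gene. The Topors peak had folds of 37.8, 23.1 and 48.9 (mean 36.6 ± 12.9), and the stronger of both Ndufb6 peaks had 42.3, 30.9 and 42.4 (mean 38.5 ± 6.61). This run thus had strong peaks in Topors and Ndufb6, with a weaker Ndufb6 peak (mean fold 8.19) between them. Another weaker peak (mean fold 9.74) lay before Topors. A gene-free run at chr14:98475133-98498067, 305 kb from Dach1, had a median of 21.2. Prkdc, which encodes the catalytic subunit of the DNA repair kinase DNA-PK, held all 4 peaks of a run with a median of 20.9, the strongest at 36.8, 22.1 and 30.4 (mean 29.8 ± 7.39). Klhl5, an adaptor gene for a ubiquitin ligase, lay under a run with a median of 20.8, and 2 of the 4 peaks were in the gene.

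The most tightly packed runs were not the strongest. The densest, at chr19:54927765-54934409, had 4 peaks in 6.65 kb with no gene under them, and 1 peak of 57.3, 45.9 and 47.3 (mean 50.2 ± 6.22) beside 3 with mean folds from 5.52 to 10.02. The next, at chr16:20541922-20548832, covered the end regions of Ap2m1, a clathrin adaptor gene, and Abcf3, with Gm15760 between them. Its 4 peaks had mean folds from 5.08 to 13.6. The following runs by density lay 8.73 kb after Fbxw11 and inside D5Ertd579e, with median folds of 13.1 and 9.62. The strongest single run peak was at chr18:55305675-55307395, in a gene-free run, with folds of 111, 92.5 and 99.1 (mean 101 ± 9.27), the ninth highest in the whole list.

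Under the 133 runs lay 156 of 46710 annotated genes on these chromosomes, or 0.334%. They comprised 92 protein-coding genes (0.448% of that class), 35 lncRNA genes (0.284%), 12 of 60 ribosomal RNA genes and 17 of other kinds. A gene was under 100 runs, a protein-coding gene under 78, and 46 runs lay wholly inside 1 gene. Genes under runs were longer, with a median of 21.2 kb against 6.31 kb over all genes, and a long gene offers more room for a run. For 26 of the 156 genes the run spanned the gene but no peak touched it. Marcksl1, Smim27 and the olfactory receptor genes Olfr311 and Olfr312 were of that kind.

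The lists of germ cell and testis somatic genes were not under runs. Of 167 genes in lists for spermatogonia, meiotic prophase, spermiogenesis and the piRNA pathway, 0 lay under a run, although 70 held at least 1 Gm4665 peak. Of 44 Sertoli, Leydig, peritubular and macrophage markers 0 did, and 20 held a peak. At the share for all genes, fewer than 1 gene of either set would be under a run, so these zeros are no finding about germ cell genes. Among 3974 members of 18 gene families that sit in clusters or are numerous, 3 were under runs, or 0.0755% against 0.334% of all genes, a share that would give 13.3 genes. Those 3 were Olfr311 and Olfr312, neither touched by a peak, and Serpina3b, a serine protease inhibitor gene. Only 459 of the 3974 held any Gm4665 peak, and whether the low share goes beyond that was not tested. The Serpina3b run had 3 peaks in the gene, the strongest at 40.6, 21.6 and 21.2 (mean 27.8 ± 11.1). Of 58 very long adhesion and synaptic genes, every one of which held a Gm4665 peak, only Sorcs3, a sorting receptor gene, had a run, or 1.72% of the list beside 0.334% of all genes. Its 4 run peaks reached 20.5, 17.3 and 22.6 (mean 20.1 ± 2.65).

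The share of run peaks at gene ends was above that of other peaks. Within 2 kb of an annotated gene end, start or finish, lay 101 of 559 run peaks, or 18.1% (95% Wilson interval 15.1% to 21.5%), against 13.0% of other Gm4665 peaks. A further 46.2% lay elsewhere in a gene and 35.8% between genes, against 44.4% and 42.5%. With protein-coding genes alone the shares at gene ends were 9.30% and 6.54%. Run peaks also stood in richer surroundings, with a median of 23 gene starts within 500 kb against 18, and 9 protein-coding starts against 6. The median number of Gm4665 peaks within 500 kb was 17 for both. Peaks of a run share their surroundings, so 559 peaks are not 559 separate observations, and the part of gene density in the share at gene ends was not tested. LacZ run peaks lay at gene ends in 68.75% of cases against 15.5% of other LacZ peaks. Of these 64 run peaks, 22 lay along the 5S ribosomal RNA array, where small genes in tandem put a gene end near any position. With protein-coding genes alone the LacZ shares were 23.4% and 8.22%.

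LacZ peaks were found inside 10 of the 133 Gm4665 runs, 16 peaks in all, or 6.49 per Mb of run against 3.86 per Mb of chromosome. Of these, 7 were in a single run over 5S genes, and without it 9 LacZ peaks in 132 runs gave 3.68 per Mb, close to the chromosome level. The other 9 runs had 1 LacZ peak each and included those inside Nav2, Prrc2b, Tmcc3, Ppp6r2 and Dym. A LacZ peak overlapped 7 of the 559 run peaks, or 1.25%, and 0.907% of the other Gm4665 peaks. With the Gm4665 peaks that overlap no LacZ peak alone, 541 peaks in 129 runs remained under the rule.

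The 5S ribosomal RNA array on chromosome 8 was the only place where a Gm4665 run and a LacZ run met. The array, chr8:123538784-123622046, holds 48 annotated 5S genes in tandem, which encode the small RNA of the large ribosomal subunit. Over the array and its edges lay 10 Gm4665 peaks, 6 of them in the run chr8:123602995-123623663, and 22 LacZ peaks, all in runs. Median folds of these Gm4665 peaks were 4.46, 3.67 and 6.41 in the 3 replicates (mean 4.85 ± 1.41, SD, n = 3), and of the LacZ peaks 7.22, 5.56 and 6.30 (mean 6.36 ± 0.830). Both sets were weak within their own list, at 0.482 ± 0.124 of the Gm4665 list median and 0.523 ± 0.189 of the LacZ list median (SD, n = 3 ratios). The run had the lowest median mean fold of the 133 runs, 4.71, and its 6 peaks had mean folds from 3.81 to 5.25. The 2 lists were normalized separately, so the levels are set side by side only. The 5S copies are near-identical, and the sources used here do not give how reads with several matches were placed, so the position of a peak within the array is uncertain.

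**Figure D5:**
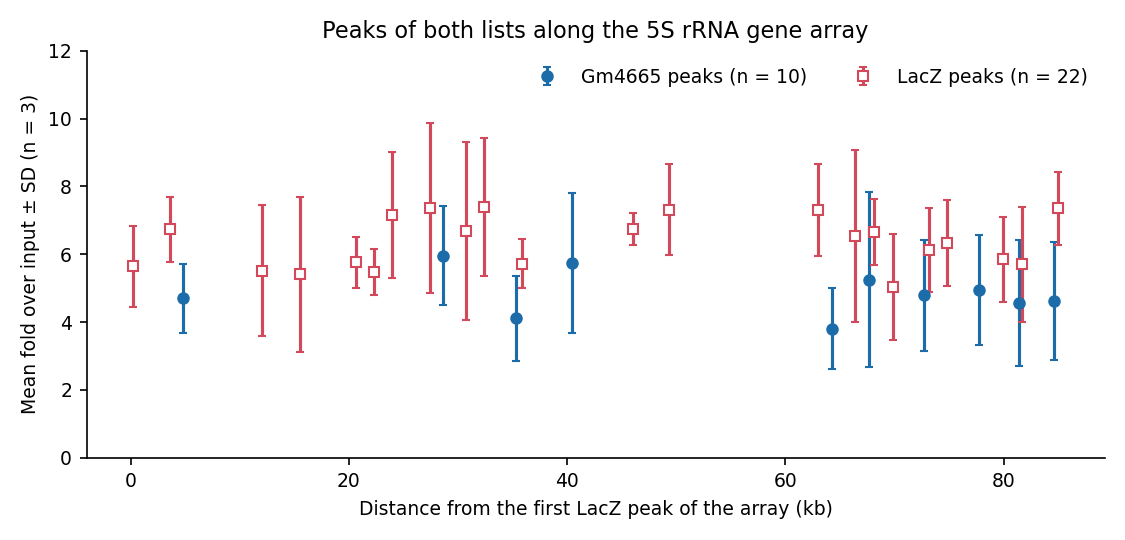
Mean fold over input with SD over 3 replicates (y axis) of Gm4665 peaks (filled circles) and LacZ peaks (open squares) along the 5S rRNA gene array, by distance in kb (x axis). The 10 Gm4665 peaks have mean folds from 3.81 to 5.96 and the 22 LacZ peaks from 5.04 to 7.40; the lists were normalized separately.

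Of the 8 control runs, 5 lay over tandem gene arrays. Under the 8 LacZ runs lay 76 genes, or 0.163% of all, of which 40 were ribosomal RNA genes, 11 tRNA genes and 16 protein-coding. The largest control run had 13 peaks over the first part of the 5S array, chr8:123538927-123588427, and another with 9 peaks lay over its last part. A run of 10 peaks at chr10:100324750-100382639 covered a tandem array of related genes from Gm4301 to Gm4312, with a median of the peaks' mean folds of 13.9. A run of 8 at chr10:104143797-104197794 covered the Gm21293 to Gm4340 array, with a median of 16.6. The remaining large one, 10 peaks at chr9:3000273-3035200, lay at the first sequenced bases of chromosome 9 with no gene and a median fold of 2.12. The Gm4665 list had no run at the chromosome 10 arrays or at the start of chromosome 9. The 3 other LacZ runs lay in Clec16a, in Sh3pxd2a and at Fcgr3 beside a repeated unit of tRNA genes. In that last run 3 of the 4 peaks each covered a copy of the same glutamate tRNA gene.

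No run lay within 10 kb of Gm4665 itself or of Rai14. The nearest run to Gm4665, on the same chromosome 9, was 4264 kb away. The peak over Gm4665 had folds of 129, 101 and 120 (mean 116 ± 13.98, SD, n = 3), the third highest of the list, and belonged to a group of 2. The strongest peak over Rai14, on chromosome 15, had folds of 143, 126 and 118 (mean 129 ± 13.1). It ranked second and belonged to a group of 3, which is 1 peak short of a run.

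Values on both sides of the 10 kb limit are given as a description. The 3 runs whose largest gap was nearest below it had largest gaps of 9931, 9930 and 9925 bp. They lay over LOC117997403 and Gm26708, over Dmbt1 and over Gm35228, with median mean folds of 5.84, 6.52 and 9.74. The 3 sets of 4 neighbours just outside, with gaps of 10018, 10028 and 10088 bp, had 11.7, 8.22 and 12.2 and no gene under them. Groups of 3 peaks, 1 short of a run, had median folds of 11.3, 8.40 and 10.2 in the 3 replicates. Run peaks had 10.6, 8.50 and 9.52, and the peaks outside runs 11.4, 8.50 and 10.3. In replicates 1 and 3 the groups of 3 were thus nearer the peaks outside runs, to which they belong.

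Some close neighbours shared 1 deposited value. Among 246 Gm4665 pairs up to 0.5 kb apart, 29 had an identical fold in replicate 2 and 17 in replicate 3, or 11.8% and 6.91%, and 1 had an identical fold in replicate 1. Among 5312 pairs 1 to 10 kb apart those shares were 0.678% and 0.866%. Of 47 pairs within 1 kb that shared a replicate 2 or 3 value, 5 were inside runs, among them the pair near Col13a1 and the first 2 peaks of the Gm46141 and Prss42 run, both at 20.8 in replicate 2. Joining all such pairs left 548 peaks in 131 runs, so few runs turned on them. A replicate value at such a pair may not belong to 1 interval alone.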

How the data were processed

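The 2 deposited peak lists, 1 for Gm4665 probes and 1 for LacZ probes, come from MACS2 per the file names. Aligner, version, settings and the joining of replicates: not given in the sources used here. Per the file headers, each row holds an interval, a linear fold enrichment over input (a ratio) for each of 3 replicates, and a pileup signal. The deposited signal (coverage) was not used here. Coordinates are in mm10 per the submitters' processing notes, and genes came from RefSeq, GRCm38.p6, leaving out genes that start below 3 Mb. Read depth is unknown, and the lists were normalized separately by the authors, so fold levels were never tested across lists. Only the ratio of run peaks to other peaks within each list was.

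Repeated rows, 649 and 165, were joined, keeping the highest fold. Runs, uniform expectations in closed form, and exact permutation tests over replicate ratios were computed in Python 3.11.15 with numpy 2.4.6, pandas 2.3.3 and scipy 1.17.1, and the run finder was tested on made-up positions. A gene is under a run if it overlaps its span by 1 base. Alternatives changed the gap, the run size, the fold minimum, joining, list size, density window, gene windows and replicates.

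The members, the gene lists and the rule for naming were chosen with earlier results of these data known. Named were the 15 runs with most peaks, the 5 of highest median fold and the 5 densest among the rest, runs shared with LacZ, the 5 largest LacZ runs, up to 4 members of each gene list, and runs at the 10 kb limit. Genes of promoter windows, of runs with LacZ peaks, of the other 3 LacZ runs and the strongest run peak were named after their values were seen. One of the densest runs is not reported here.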

Additional observations from a re-analysis of the deposited data

How the results depend on the processing

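The number of run peaks followed the rule closely, and its ratio to uniform placement less so. A gap of 5 kb gave 87 Gm4665 peaks in 21 runs, and 20 kb gave 3187 in 710. At least 3 peaks per run gave 2647 peaks in 829 runs with 763 genes under them, and at least 5 gave 111 in 21 with 36 genes. Under these 4 settings the Gm4665 ratio stayed between 1.20 and 1.41. Lists of equal size gave 0 peaks, 0 runs and a ratio of 0 where uniform placement gives 0.502 runs, which shows no turn (without each replicate in turn 0 to 4 peaks, 0 to 1 runs, ratio 0 to 1.98). With 1 Mb densities the ratio was below 1, at 0.806. Densities per 10 Mb, a window added after seeing the data, gave 1.18. For LacZ, 5 kb gave 36 peaks in 5 runs (ratio 135), 20 kb 13 runs (6.31), at least 3 peaks 121 in 27 runs (3.06), at least 5 a ratio of 567, a fold of at least 4 in every replicate 24.2, and 1 Mb and 10 Mb densities 6.42 and 21.9. Without the 5 LacZ runs of at least 8 peaks, also added later, 14 peaks gave 6.88. The cause of these shifts was not tested, beyond the 1 Mb windows counting their own run and shorter lists holding fewer close pairs.

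The Gm4665 fold ratio passed 1 with mean folds (1.01). Without the 5S runs and the run at the start of chromosome 9, left out after seeing the data, the LacZ fold ratio was 1.12 and the difference between lists turned to -0.168 (exact p = 0.2). Counting genes that touch a peak left 27 under LacZ runs, and protein-coding genes alone numbered 92 and 16. The share at gene ends was 10.6% with 1 kb windows and 9.30% with protein-coding genes. LacZ peaks overlapped a peak of 6 runs rather than the span of 10. Ranked by peaks per kb, 1 of the 15 named runs would be named. With replicate number as a block, the difference in fold ratio stayed at 0.302 with an exact p of 0.25, the smallest 3 pairs allow. Whether the numbers pair the samples is unknown, since the labels do not say what a number stands for. Over 346 overlapping peaks of both lists, deviations from the list's mean log2 fold were correlated between replicates. Same-numbered replicates gave -0.053, -0.046 and 0.008, and unlike-numbered ones from -0.149 to 0.197. Such values cannot decide whether samples were paired. Joining neighbours with a shared value and leaving out the 5S array, both added after seeing the data, gave 548 and 553 peaks. Depth is unknown, so how many weak neighbours were missed cannot be given.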
